A study of Mus musculus with 4 samples.

Results

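*Lin28b*, *Hmga2*, *Igf2bp1*, *Igf2bp2*, *Igf2bp3* and *Arid3a* were followed across FL and adult BM haematopoietic stem cell fractions. They were picked by gene symbol as the genes of the LIN28B, HMGA2 and IGF2BP axis of fetal stem cells, and make up 6 of the 23906 symbols in the files. FPKM is a count of sequenced fragments scaled by transcript length and by the size of the library. All 6 had higher FPKM in FL than in BM, in GFP+ and in GFP- cells alike. Of the 18859 genes above 0 in any sample, 3970 were likewise higher in FL in both fractions. In 15.8% of those 18859 genes both FL values exceeded both BM values. *Igf2bp1* stood apart, at 426 and 58.8 FPKM in FL against 0 and 0.0184 in BM, where here and throughout a pair of values gives GFP+ cells first and GFP- cells second. None of the members reached 1 FPKM in both BM samples, whereas all 6 did in both FL samples. The share of all genes with this pattern was not counted, and the members were chosen as fetal genes.

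RNA sequencing was done on LSK-SLAM cells, which are lineage-negative, Sca1-positive, cKit-positive, CD150-positive and CD48-negative and are enriched for HSCs. All cells came from mice carrying the *BRE–GFP* transgene, in which a BMP responsive element drives GFP, so that GFP+ cells are those with active BMP–Smad signalling when sorted and GFP- cells those without. Each tissue, FL of embryonic day 14 embryos or BM of adult mice, gave 1 GFP+ and 1 GFP- sample, so there were 4 samples with no treatment and no replicate of any condition. The transgene was kept on a C57BL/6 background and reports the pathway at the moment of isolation only, and how many embryos or mice went into a sample is not given in the sources used here.

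LIN28B is an RNA-binding protein of fetal stem and progenitor cells that blocks the maturation of let-7 microRNAs. Mature let-7 in turn binds short sites in the 3′UTRs of growth genes and lowers their output, so that cells with LIN28B can keep up let-7 targets such as HMGA2, an architectural chromatin protein linked to self-renewal of young stem cells, and the IGF2BP proteins, which bind mRNAs and affect their stability, transport and translation. ARID3A is a DNA-binding protein of early B lymphoid cells and has been placed downstream of LIN28B and let-7 in fetal-type B lymphopoiesis. In mouse haematopoiesis LIN28B is known as a mark of the fetal stage that is largely switched off in the adult.

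The sequence element that joins these genes is the let-7 seed, bases 2 to 8 of the mature microRNA, which is shown first because it does not depend on the FPKM. Being let-7 targets is part of why these genes are grouped as an axis, so holding the site is no independent finding. Of 11 mature mouse let-7 family sequences in RefSeq, 10 share the same seed, given in capitals in the following examples, and let-7j differs in its last base.

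let-7a-5p: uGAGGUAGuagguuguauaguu
let-7g-5p: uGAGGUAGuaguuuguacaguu
miR-98-5p: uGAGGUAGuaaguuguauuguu
let-7j: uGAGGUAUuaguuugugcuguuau

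The longest annotated 3′UTR of each member (GENCODE vM1, build NCBI37) was searched on the transcript strand for CTACCTC, the complement of the shared seed. All 6 members held it at least once, with 16 matches in all, whereas 8.80% of the 19915 genes with an annotated 3′UTR did. *Lin28b*, *Hmga2* and *Igf2bp1* held 4 matches each, *Arid3a* held 2 and *Igf2bp2* and *Igf2bp3* held 1 each. Longer 3′UTRs hold more matches, so each member was set beside the other genes with a 3′UTR within 20% of its length. At least as many matches were found in 0.197% of the 1013 genes of the length of *Lin28b*, in 0.102% of 1966 for *Hmga2*, in 0% of 359 for *Igf2bp1* and in 2.44% of 1924 for *Arid3a*. For the other two members the single match was no rarity, with shares of 13.1% of 2821 genes for *Igf2bp2* and 14.1% of 2685 for *Igf2bp3*. A match is a description of the sequence and not evidence of binding in these cells.

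Of the 16 matches, 8 were followed by an A, the base that usually faces the first position of the microRNA, and every member held at least 1 of these. They are printed on the transcript strand with the match in capitals, as the examples of the match that every member has. All lie in 3′UTR sequence, and each was identical to the NCBI37 genome at its position. The share of all 3′UTRs holding a match followed by A was not counted.

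Lin28b, chr10:45100828-45100849, minus strand: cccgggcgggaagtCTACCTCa
Hmga2, chr10:119801280-119801301, minus strand: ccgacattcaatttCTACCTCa
Igf2bp1, chr11:95823092-95823113, minus strand: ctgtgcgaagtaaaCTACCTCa
Igf2bp1, chr11:95820671-95820692, minus strand: agcagtgctattaaCTACCTCa
Igf2bp1, chr11:95820077-95820098, minus strand: tataaatggatgaaCTACCTCa
Igf2bp2, chr16:22059546-22059567, minus strand: cacacaaataaaagCTACCTCa
Igf2bp3, chr6:49036786-49036807, minus strand: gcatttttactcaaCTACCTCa
Arid3a, chr10:79416641-79416662, plus strand: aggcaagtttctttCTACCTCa

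**Figure D1:**
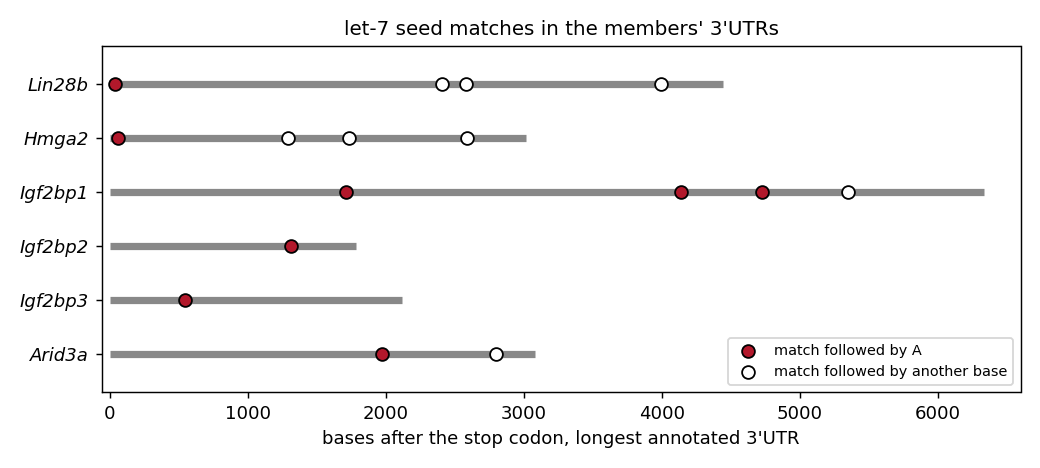
Positions of the let-7 seed matches, in bases after the stop codon (x axis), along the longest annotated 3′UTR of each member (grey bars), filled where the match is followed by A and open where it is not. The first matches of *Lin28b* and *Hmga2* lie 36 and 58 bases after the stop codon, while the 3 filled matches of *Igf2bp1* lie between 1715 and 4730.

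The samples differed in more than tissue and GFP. The lineage stain held an antibody to the myeloid protein CD11b for adult BM only, and the methods describe Ficoll separation for BM cells only. These steps run with tissue, and their part was not tested. Genes above 0 numbered 12372 and 15556 in FL, and 13489 and 17345 in BM. The study lists the most uniquely mapped reads for FL GFP+ and the fewest for FL GFP- cells. HSC markers were detected in every sample except *Procr*, the gene of the endothelial protein C receptor on HSCs, which was listed at 0 in BM GFP+ and at 60.8 to 113 elsewhere. The 9 HSC markers summed to 719 and 761 FPKM in FL and to 485 and 553 in BM, where *Ly6a*, the gene of Sca1, gave 286 and 146. Of these markers 7 were higher in FL in both fractions, all but *Ly6a* and *Ptprc*, as were 3970 of 18859 detected genes. In BM GFP+ cells 7 had their lowest value. Past 2-fold in both fractions, 1 marker (*Mecom*) was higher in FL and 1 (*Ly6a*) in BM, against 6.7% and 10.7% of genes. Over the 9 markers the median log2(FPKM + 1) ratio of FL over BM was 2.62 in GFP+ and 0.49 in GFP- cells. Most HSC markers thus lay in the direction of the members, though few past 2-fold in both fractions. The part of these markers in the members' values was not tested. Genes of cells that the lineage gate should remove were abundant in the BM samples: 7 granulocyte genes summed to 58950 and 14376 in BM against 354 and 154 in FL, and 6 B cell genes to 3356 and 874 against 96.3 and 41.9. In FL the 9 hepatocyte genes summed to 373 and 34.2, against 16.0 and 11.04 in BM. In such bulk samples fewer cells of a type and less RNA per cell cannot be told apart, and the part of these other cells in the tissue differences was not tested. Because of these values the counts past 2-fold between the tissues are also given for GFP- cells alone, without either GFP+ sample. The granulocyte and B cell genes differed between the tissues in GFP- cells as well. The tissue and GFP directions rest on the deposited labels. The study's plot of receptor and Smad genes may list the samples in another order, and the GFP label within each tissue was not checked here by a measured GFP transcript.

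**Figure D2:**
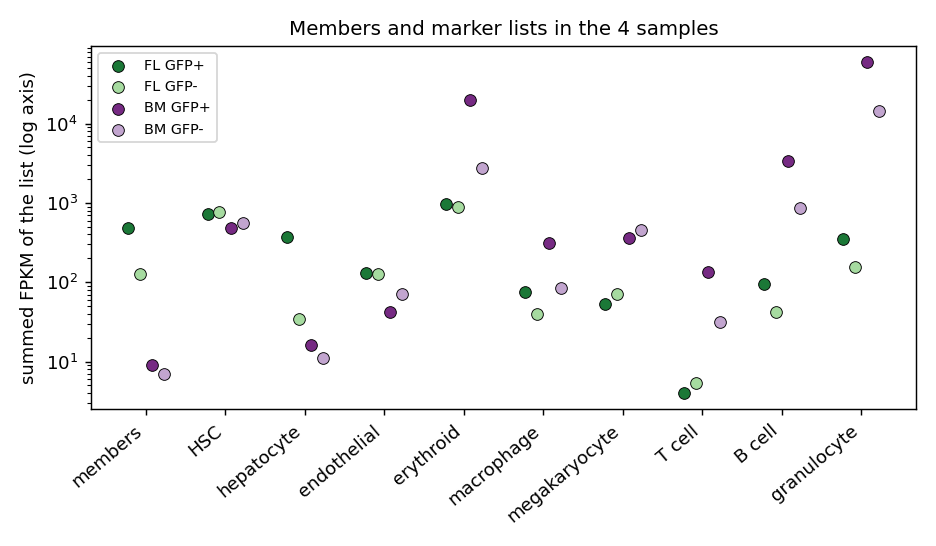
Summed FPKM (log axis) of the 6 members and of 9 marker lists in each sample. The members sum to 477 and 127 in FL (GFP+ first) and to 9.08 and 6.88 in BM, the HSC markers lie between 485 and 761 in all 4 samples, and granulocyte and B cell genes are highest in BM GFP+ cells.

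*Lin28b* itself (chromosome 10 of NCBI37, 45096426 to 45206201, minus strand) had 2.57 and 5.96 FPKM in FL and 0.0443 and 0.0587 in BM. Both FL samples were thus above both BM samples, where the values lay near 0, and the lower FL value was 43.7 times the higher BM value. On the log2(FPKM + 1) scale, which compresses the change of weakly expressed genes, the FL/BM ratio was 1.77 in GFP+ and 2.72 in GFP- cells. Although it heads the axis, *Lin28b* was the member with the lowest FPKM in FL GFP+ cells, at the 52.2nd percentile of the 18859 genes detected in any sample.

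*Hmga2* (chromosome 10, 119798331 to 119913525, minus strand) was measured at 9.94 and 13.1 FPKM in FL and at 1.98 and 0.890 in BM. The tissues did not overlap, and FL exceeded BM 5.01-fold in GFP+ and 14.7-fold in GFP- cells. Its relative *Hmga1*, another architectural chromatin protein gene, was far more abundant in every sample, at 391 and 269 FPKM in FL, and 154 and 139 in BM. The ratio of *Hmga1* between the tissues was 2.54 in GFP+ and 1.93 in GFP- cells, so that it missed a 2-fold difference in the GFP- fraction.

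*Igf2bp1* (chromosome 11, 95818477 to 95867254, minus strand) was the most abundant member in both FL samples, at the 98.9th percentile in FL GFP+ and the 90.5th in FL GFP- cells, and made up 89.2% and 46.2% of the summed FPKM of the 6 members there. In BM it was listed at 0 in the GFP+ sample and lay at 0.0184 in the GFP- sample. *Mir3063*, a microRNA locus that lies within *Igf2bp1* in RefSeq, has the same value as *Igf2bp1* in all 4 samples, so the files do not separate the signals of these 2 entries. The log2(FPKM + 1) ratio between the tissues was 8.74 in GFP+ and 5.88 in GFP- cells, the largest of the members in either fraction.

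*Igf2bp2* (chromosome 16, 22059082 to 22163372, minus strand) lay at 14.1 and 28.9 FPKM in FL and at 0.0367 and 4.56 in BM. Among the 3 IGF2BP genes it alone exceeded 1 FPKM in BM GFP- cells, where it formed 66.4% of the members' summed FPKM. The lower FL value was 3.08 times the higher BM value, and the FL/BM ratio was 6.33 in GFP- cells. *Igf2bp3* (chromosome 6, 49035220 to 49164953, minus strand) lay at 20.3 and 15.8 in FL and at 4.83 and 0.844 in BM. For this gene it was the GFP+ sample that carried the BM signal, the reverse of *Igf2bp2*, and the FL/BM ratio was 4.21 in GFP+ and 18.8 in GFP- cells.

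*Arid3a* (chromosome 10, 79389788 to 79417763, plus strand) showed the smallest tissue difference of the members on the log2(FPKM + 1) scale, at 4.90 and 4.73 FPKM in FL against 2.19 and 0.502 in BM. The FL/BM ratio of FPKM was 2.24 in GFP+ cells, the lowest of the members, and 9.42 in GFP- cells, above that of *Igf2bp2*. Its relative *Arid3b*, which encodes a similar DNA-binding protein and is also a known let-7 target, did not share the pattern. *Arid3b* was listed at 0 and lay at 7.06 in the FL samples, against 23.0 and 3.61 in BM, so its highest value came from the adult. *Arid3c* was listed at 0 in all 4 samples, and *Lin28a*, the relative of *Lin28b* best known from pluripotent cells, was listed at 0 in both FL samples and reached 0.636 and 0.255 in BM.

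**Figure D3:**
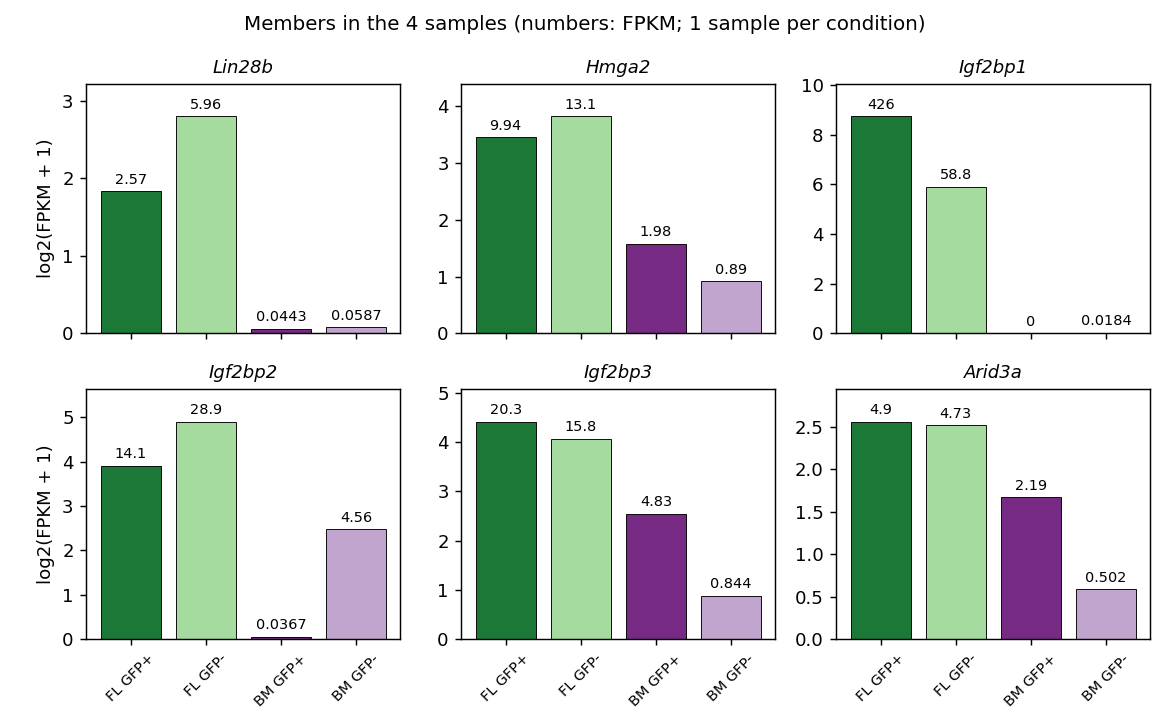
log2(FPKM + 1) of each member in the 4 samples, with the FPKM written above each bar; each bar is 1 sample, so there are no error bars. In every panel both FL bars (green) are taller than both BM bars (purple), and *Igf2bp1* reaches 426 in the GFP+ sample of the FL, with 0 in that of the BM.

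The order of the members by FPKM in FL GFP+ cells was *Igf2bp1*, *Igf2bp3*, *Igf2bp2*, *Hmga2*, *Arid3a* and *Lin28b*, and in FL GFP- cells *Igf2bp1*, *Igf2bp2*, *Igf2bp3*, *Hmga2*, *Lin28b* and *Arid3a*. With 1 sample per condition there is no spread against which neighbours in these orders could be separated. *Arid3a* and *Lin28b*, for example, exchanged places between the fractions, with 4.90 against 2.57 and 4.73 against 5.96.

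For the comparison of fetal with adult cells, the rule that the study used for GFP was applied to tissue, a difference in FPKM of more than 2-fold between the tissues, in the same direction in both fractions. All 6 members passed it as higher in FL and 0 as higher in BM, where 6.7% of the 18859 detected genes passed as higher in FL and 10.7% as higher in BM. The members were chosen as fetal genes, so their direction is no independent evidence. Passing in both fractions fixes that all 6 also pass in each fraction alone. There 21.4% of genes were more than 2-fold higher in FL in GFP- cells, and 21.3% in GFP+ cells. Both FL samples exceeded 2 times both BM samples in all 6 members and in 4.6% of genes. A 4-fold rule left 5 members, without *Arid3a*. The median log2(FPKM + 1) ratio over the 6 members was 1.87 in GFP+ and 2.81 in GFP- cells, against -0.029 and -0.034 over the 13609 genes that reached 1 FPKM in any sample, of which 7.86% passed the 2-fold rule as higher in FL.

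**Figure D4:**
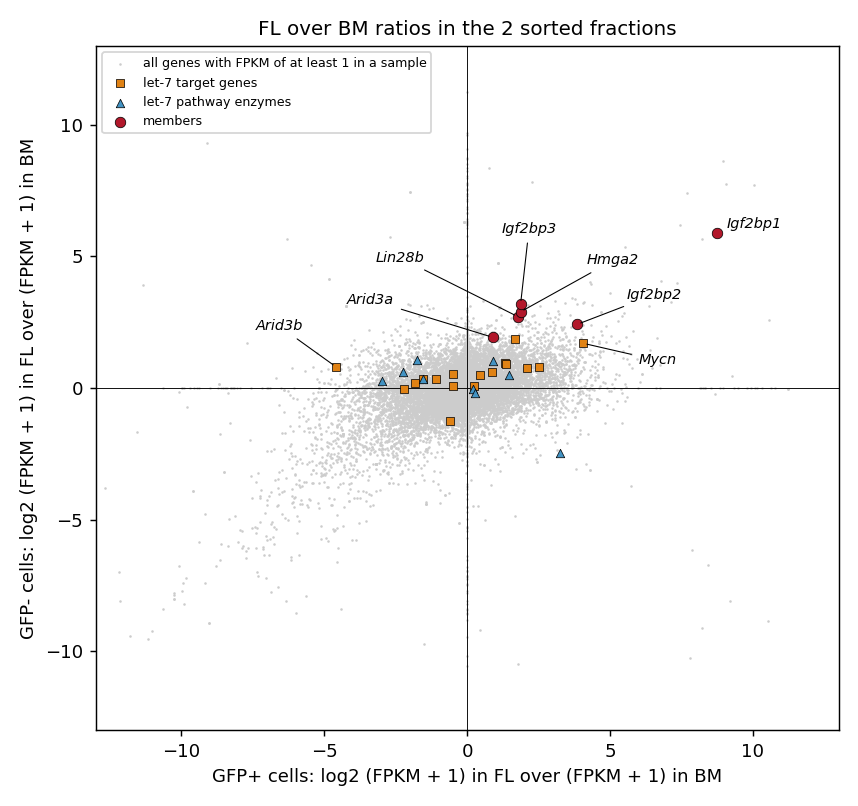
log2(FPKM + 1) ratio of FL over BM in GFP+ cells (x axis) and in GFP- cells (y axis) for 13609 genes (grey), the members (red circles), let-7 target genes (orange squares) and let-7 pathway enzymes (blue triangles). All 6 members lie in the upper right quadrant, from *Arid3a* at 0.89 and 1.93 to *Igf2bp1* at 8.74 and 5.88, whereas *Arid3b* lies at -4.59 and 0.81.

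The only repeat of the tissue contrast is across the sorted fractions. A linear model with tissue and GFP terms was applied by limma to 11707 genes, those reaching 1 FPKM in 2 or more samples. It left 1 residual degree of freedom. Its error is the difference between the fractions in the tissue effect, and not a spread between animals. Through eBayes with trend, limma draws this error towards that of other genes of similar level. The standard errors and *P* values by limma therefore rest partly on other genes. All 6 members entered the fit through their FL values. Only *Igf2bp1* passed, with a log2 fold change of 7.31 (standard error 0.89) and an adjusted *P* value of 0.0042 by limma, while 0.29% of genes passed as higher in FL and 2.17% as higher in BM. This call was lost without FL GFP+ (adjusted *P* = 0.0952), without BM GFP+ (0.557) and without BM GFP- cells (0.323), fits by limma that also dropped the GFP term. With a BM value of 0 the fold change depends on the pseudocount, and 0.1 gave 10.5. Over 11 alternative fits the fold change ranged from 5.89, without FL GFP+ cells, to this 10.5.

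For the other members limma gave a log2 fold change of 3.14 (standard error 0.92, adjusted *P* = 0.133) for *Igf2bp2*, 2.53 (0.90, adjusted *P* = 0.198) for *Igf2bp3*, 2.39 (0.92, adjusted *P* = 0.229) for *Hmga2*, 2.24 (0.73, adjusted *P* = 0.166) for *Lin28b* and 1.41 (0.86, adjusted *P* = 0.444) for *Arid3a*. Leaving out BM GFP+ cells moved the fold change of *Igf2bp2* to 1.93, and leaving out BM GFP- cells moved that of *Arid3a* to 0.87. A pseudocount of 0.1 moved *Lin28b* to 4.73. Each was higher in FL in 2 of 2 fractions, and these *P* values do not show that the levels were alike. An exact two-sided permutation test of 2 samples against 2 cannot go below 0.333 and was not used.

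The study asked how BMP-activated and non-activated cells differ, and the members were therefore also compared between GFP+ and GFP- cells of each tissue. They did not move as a group. In the FL, *Igf2bp1* was 7.24-fold higher in GFP+ cells, whereas *Lin28b* was 2.32-fold and *Igf2bp2* 2.05-fold higher in GFP- cells. *Hmga2*, *Igf2bp3* and *Arid3a* differed by less than 2-fold there. Thus 1 of 6 members was past 2-fold higher in FL GFP+ cells, against 14.1% of genes, and 2 of 6 in FL GFP- cells, against 32.7%.

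The 7.24-fold difference of *Igf2bp1* ran beside one in hepatocyte genes. *Alb*, the serum albumin gene, lay at 140 FPKM in the GFP+ and 9.49 in the GFP- sample of the FL, and *Afp*, the alpha-fetoprotein gene of fetal hepatocytes, 149 and 5.66. *Apoa1* and *Apoa2*, which encode apolipoproteins made in liver, had 32.1 and 33.9 in FL GFP+ cells against 5.21 and 3.84. Not all of the list shared this, since *Fgb* and *Ahsg* were listed at 0 in FL GFP+ and had 1.32 and 0.574 in FL GFP- cells, and *Ttr* had 3.65 and 2.85. The sort for Sca1, cKit and CD150 and against lineage markers and CD48 would be set to leave hepatocytes out, and the part of such cells in the *Igf2bp1* value was not tested. The hepatocyte genes summed to 373 and 34.2 in FL, beside 426 and 58.8 for *Igf2bp1*.

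In the BM the picture differed. *Igf2bp3* was 5.72-fold, *Arid3a* 4.35-fold and *Hmga2* 2.23-fold higher in GFP+ cells, 3 of 6 members against 17% of genes. *Igf2bp2* was 124-fold higher in BM GFP- cells, with 4.56 against 0.0367, and *Igf2bp1* was detected in the GFP- sample only, together 2 of 6 against 34.7% of genes. *Lin28b* had 0.0443 and 0.0587, both near 0. The granulocyte, B cell and macrophage genes were also higher in BM GFP+ cells, with macrophage genes summing to 308 against 85.0, and their part in these differences was not tested.

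Under the study's own rule of a 2-fold difference in both tissues, 0 members were high in GFP+ cells, against 2.51% of genes, and 1 member, *Igf2bp2*, was high in GFP- cells, against 13.1%. In limma the GFP term passed for none of the members (0 at an unadjusted *P* under 0.05), with adjusted *P* values from 0.904 for *Igf2bp2*, whose log2 fold change was -1.71 (standard error 0.92), to 0.991 for *Hmga2*. Over all genes 0.0427% passed as higher in GFP+ and 0.0683% as higher in GFP- cells.

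**Figure D5:**
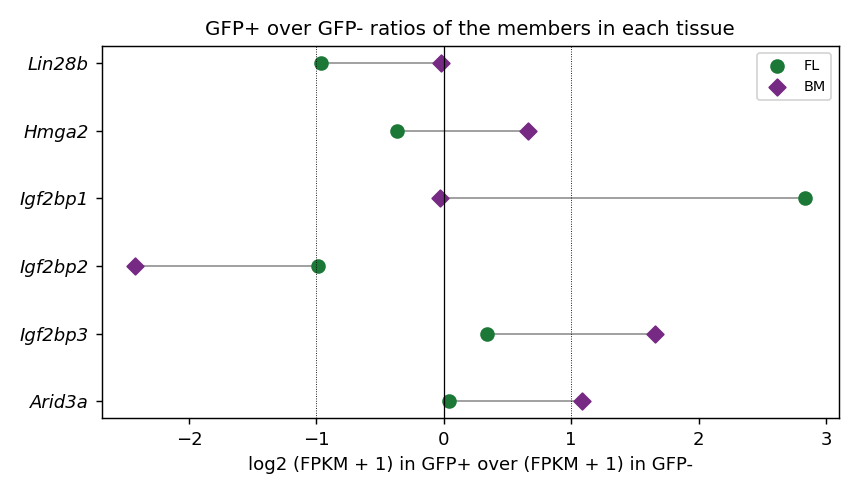
log2(FPKM + 1) ratio of GFP+ over GFP- cells for each member in FL (circles) and BM (diamonds), with dotted lines at a log2 ratio of 1 in either direction. *Igf2bp1* lies at 2.84 in FL and near 0 in BM, *Igf2bp2* lies below 0 in both tissues, and *Igf2bp3* lies above 0 in both.

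The next question was whether the rest of the let-7 pathway followed the members. The 12 let-7 and miR-98 precursor loci carried almost no signal, with 10 at 0 in every sample and *Mirlet7b* and *Mirlet7c-2* sharing an FPKM of 0.302 in BM GFP- cells and 0 elsewhere. Mature microRNAs are too short for these cDNA libraries, so let-7 levels were not measured. Of 10 genes for enzymes and partners of let-7 processing, decay and action, 0 passed the 2-fold tissue rule in either direction, against 6.7% of genes as higher in FL and 10.7% as higher in BM, and 0 of the 9 tested passed limma (1 at an unadjusted *P* under 0.05), against 0.29% and 2.17%. At these shares a list of this size can hold 0 calls without standing apart. In GFP- cells alone 2 were more than 2-fold higher in FL and 1 in BM, against 21.4% and 28.5% of genes.

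The enzymes that act with LIN28 on let-7 precursors were present in every sample. The terminal uridylyl transferase gene *Zcchc11* lay at 1.96 and 10.5 FPKM in FL and at 9.11 and 4.47 in BM, and its paralogue *Zcchc6* had 14.5 to 17.0 in all 4. *Dis3l2*, the exonuclease gene for uridylated precursors, lay at 31.6 and 13.8 in FL against 26.0 and 15.8 in BM. Neither of the last pair thus separated the tissues. *Trim71*, a let-7 target of early embryos, was listed at 0 in all samples.

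Among the processing genes *Drosha*, the nuclear RNase, came closest to a 2-fold difference in both fractions, with 21.6 and 20.1 in the FL against 10.95 and 9.22 in the BM, a ratio of 1.97 in GFP+ and 2.18 in GFP- cells. *Tarbp2*, a partner of Dicer, lay at 86.4 and 72.5 in FL against 30.6 and 50.9 in BM. Its ratio was 2.83 in GFP+ and 1.43 in GFP- cells, and it was the gene at an unadjusted *P* under 0.05 by limma (adjusted *P* = 0.285). *Dgcr8*, the partner of Drosha, ranged from 2.92 in BM GFP+ to 87.5 in BM GFP- cells, with 36.5 and 14.9 in the FL. *Xpo5*, the exporter of precursors, *Dicer1* and *Ago2*, the effector, had their lowest values in FL GFP+ cells, at 2.86, 0.169 and 0.304, against 19.5 to 29.5, 1.30 to 2.39 and 1.53 to 5.15 in the other samples. FL GFP+ cells were also the sample with the fewest detected genes, though not with the fewest uniquely mapped reads.

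Of 20 genes listed as known let-7 targets, which include *Hmga1*, *Arid3b*, *Lin28a*, *Dicer1* and *Trim71* from above, 3 passed the 2-fold rule as higher in FL (6.7% of all genes did) and 1, *Lin28a*, as higher in BM (10.7%), and their median log2(FPKM + 1) ratio was 0 in GFP+ and 0.44 in GFP- cells. *Mycn*, a growth-promoting transcription factor gene of the Myc family, lay at 292 and 228 in FL against 16.4 and 69.4 in BM. It was the only one of the 17 tested to pass limma, with a log2 fold change of 2.88 (standard error 0.53, adjusted *P* = 0.0283). This call was lost on leaving out any 1 sample (adjusted *P* from 0.212 to 0.470), and without BM GFP+ cells the fold change was 1.88. In GFP- cells alone 3 targets were more than 2-fold higher in FL and 3 in BM, against 21.4% and 28.5% of genes. *Tgfbr1*, a TGF-beta receptor gene, had 17.4 and 14.2 in the FL against 4.81 and 3.18, and *Plagl2*, a zinc finger factor gene, 21.2 and 13.9 against 7.66 and 6.89. Scaling every sample to one FPKM total moved the count of higher targets from 3 to 7. The same scaling shifted the median log2 ratio of the 13609 genes that reached 1 FPKM towards FL by 0.26 in GFP+ and 0.34 in GFP- cells. The seed match was present in 11 of these 20 genes, and was found in *Tgfbr1* and *Plagl2* but not in the 3′UTR of *Mycn* used here.

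The listed mRNAs bound by IGF2BP proteins were *Igf2*, *H19*, *Actb*, *Myc* and *Cd44*, and 2 of these 5 passed the 2-fold rule as higher in FL, against 6.7% of genes, in a list chosen with results of these data known. *Igf2*, a fetal growth factor gene, lay at 17.5 and 12.5 FPKM in FL against 0.0969 and 0.394 in BM. *H19*, the non-coding RNA gene beside it, had 44.7 and 42.1 against 0 and 0.0368. It passed limma (log2 fold change 5.45, standard error 0.89, adjusted *P* = 0.0176), having entered the fit through its FL values alone. With a BM value of 0 its fold change depends on the pseudocount, and 0.1 gave 8.54 (adjusted *P* = 0.0828 by limma). The call of *H19* was also lost on leaving out any 1 sample. In GFP- cells alone 2 of the 5 were more than 2-fold higher in FL and 1, *Myc*, in BM, against 21.4% and 28.5% of genes. *Actb*, *Myc* and *Cd44* were lower in FL in both fractions, none past 2-fold in both.

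Other genes used to tell fetal from adult HSCs gave a mixed picture, and 0 of the 3 tested passed limma (1 at an unadjusted *P* under 0.05). *Cebpa*, a myeloid transcription factor gene, was listed at 0 in both FL samples and reached 6.77 and 1.23 in BM. Granulocyte genes were abundant in the same BM samples, and their part in the *Cebpa* values was not tested. *Ezh2*, the Polycomb methyltransferase gene, ranged only from 28.6 to 39.1. Its paralogue *Ezh1* was listed at 0 in FL GFP+ and had 11.3 to 29.6 elsewhere. *Sox17*, a factor of fetal HSCs, was at 0 in both GFP+ samples and lay at 0.416 and 0.728 in the FL and BM GFP- samples, so it did not mark the FL samples here.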

How the data were processed

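RNA of 4 samples was sequenced on an Illumina HiSeq2000 from SMARTer libraries. The authors aligned reads with Bowtie and TopHat, quantified genes with Cufflinks 2.2.1 and Cuffquant, correcting for fragment bias and for reads with several positions, and deposited FPKM scaled by the geometric option of Cuffnorm. The methods name NCBI37/mm9 and the submitters' processing notes mm10. Positions here are from GENCODE vM1 (NCBI37), which holds 20855 of the 23906 symbols and all 6 members. Sample groups follow the deposited labels, although the study's plotted sample order may differ. The files hold no read counts, so the precision of a single FPKM is unknown and no count model was fitted.

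The members and gene lists were chosen with earlier results of these data known. Named genes are the members, their relatives, let-7 enzymes, stage comparators, the let-7 targets past 2-fold in both fractions, and the 3 nearest patterns per member. The IGF2BP client, BMP response and cell type marker genes named singly, and *Col18a1*, were chosen after their values were seen. Ratios used log2(FPKM + 1). Tissue and GFP effects were fitted with limma 3.58.1 in R 4.3.3 (lmFit, eBayes with trend, Benjamini-Hochberg adjustment over all genes tested). The fit was checked on simulated data with the same noise for every gene and changes only in genes of higher mean level. That check does not cover weakly expressed genes. Other steps used Python 3.11.15. Alternatives were pseudocount 0.1, other filters, 1.5-fold and 4-fold thresholds, equal FPKM totals or upper quartiles, no trend, no GFP block and leaving out each sample. Mature microRNA sequences are from RefSeq (GRCm38.p6).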

Additional observations from a re-analysis of the deposited data

Results flagged for a closer look

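For 2 members the GFP difference ran in opposite directions in the tissues, each direction resting on 1 sample per fraction, and the difference between the tissues was not tested. *Hmga2* had a log2(FPKM + 1) ratio of GFP+ over GFP- cells of -0.37 in the FL and 0.66 in the BM, a difference of -1.03. *Igf2bp1* had a ratio of 2.84 in the FL and -0.026 in the BM, a difference of 2.86, where both BM values lay at or near 0.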

How the results depend on the processing

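All 6 members were more than 2-fold higher in FL under each scaling and with both FL samples set against both BM samples. A 4-fold rule left 5. Their counts in single fractions, at 1.5-fold and with the FPKM filter were fixed by the main rule and their FL values. The 36 tissue ratios of the members under other pseudocounts or scalings were all above 0 (0.91 to 12.1). In the 11 alternative limma fits each member was higher in FL. *Igf2bp1* passed in 7 of these, and besides the samples named above it was lost without the trend (adjusted *P* = 0.0892). *Igf2bp2* passed in 1, with genes at an FPKM of at least 1 in 1 sample (0.0303), and the remaining 4 members in 0, so these calls depend on the model.

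The number of genes called by limma, 34 higher in FL and 254 in BM, moved to 10 and 70 with a pseudocount of 0.1, to 234 and 769 with genes at an FPKM of at least 1 in 1 sample, to 22 and 167 with no filter, to 0 and 0 without the trend (516 and 1065 at an unadjusted *P* under 0.05), and to 18 and 158 with no GFP block. With equal totals it was 48 and 160. Leaving out 1 sample gave 0 to 13 and 0 to 82, with 0 and 0 without BM GFP+ (186 and 738 at an unadjusted *P* under 0.05) and without BM GFP- cells (671 and 1113). Genes higher in FL under the fold rule numbered 1263, and 2002 at 1.5-fold, 466 at 4-fold, 2194 with equal totals, 4032 in GFP- cells alone and 4012 in GFP+ cells alone. Those higher in BM numbered 2017, and 1301 at 4-fold, 5383 in GFP- and 5342 in GFP+ cells alone. The choice of single fractions was made after seeing the data. Genes high in GFP+ cells numbered 473, and 1082 at 1.5-fold, 133 at 4-fold and 270 with equal totals, and those high in GFP- cells 2465, and 1222 with an FPKM of at least 1. *Igf2bp2* was no longer high in GFP- cells of both tissues at 4-fold (0 members). Of the let-7 enzymes 1 was higher in FL at 1.5-fold, with equal totals and with equal upper quartiles. Of the let-7 targets 7, 0, 7 and 5 were higher in FL at 1.5-fold, at 4-fold, with equal totals and with equal upper quartiles, and 2 were higher in BM at 1.5-fold. Of the IGF2BP clients 1 was higher in BM at 1.5-fold. In GFP- cells alone 2 enzymes were higher in FL and 1 in BM, 3 targets in BM and 1 client in BM. *Mycn* and *H19* each passed limma in 4 of 11 alternative fits, added after seeing the data. Signs turned for small GFP differences only, for *Arid3a* in the FL (-0.18 with equal totals, -0.15 with equal upper quartiles) and for the limma GFP term of *Hmga2* (-0.12 with equal totals). Apart from fewer samples, genes or a changed threshold, the cause was not tested. Without counts, values near 0 cannot be told from missed detection. The GFP block pairs the tissues within a fraction, and the fit with no GFP block, above, removes it. By animal or replicate number no paired analysis was possible because each condition has 1 sample and the labels carry no such numbers.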

Other observations

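The genes whose values lay nearest to a member over the 4 samples, by Euclidean distance on the log2(FPKM + 1) scale among 13254 genes, are given as a description. Short RNA genes were left out of this search, among them *Mir3063*, whose values are identical to those of *Igf2bp1*. For *Lin28b* they were *Galnt5*, *Evi5* and *Src*, for *Hmga2* they were *Cyp4b1*, *Tmem2* and *Pir*, and for *Arid3a* they were *Myh10*, *Slc2a4rg-ps* and *Neurl4*, at distances of 0.35 to 0.88. For *Igf2bp2* they were *Bcam*, *Tmem37* and *Homer3*, and for *Igf2bp3* they were *P2ry13*, *Tmem91* and *Ift122*, at 0.63 to 0.94. *Igf2bp1* had no close neighbour, with *Col18a1* at 2.77, *Alb* at 2.98 and *H19* at 3.26. *Col18a1*, a basement membrane collagen gene, lay at 110 and 65.6 FPKM in FL and at 0 and 2.99 in BM, GFP+ first.

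The BMP response genes, a check on the GFP sort, were all higher in GFP+ cells of the BM but not uniformly so in the FL. Under the 2-fold rule in both tissues 0 of 5 passed, against 2.51% of genes. At this share a list of 5 can hold 0 without standing apart. Within the BM the ratio of GFP+ over GFP- cells was 4.03 for *Id1*, 5.64 for *Id2*, 2.57 for *Id3* and 3.35 for *Smad7*. *Smad6* was at 1.30 there, and 17% of genes were past 2-fold in that direction. Within the FL none was past 2-fold higher in GFP+ cells, against 14.1% of genes, and the highest ratio was 1.93, for *Id1*. *Id3* lay at 96.6 against 97.03 in FL and *Smad7* at 0 against 0.489, while both were higher in the GFP+ sample of the BM, at 120 against 46.6 and 3.83 against 1.14. *Id2* lay at 10.95 against 9.95 in FL and 132 against 23.5 in BM. *Id1*, a direct BMP target, lay at 109 against 56.5 in FL, and at 70.4 against 17.5 in BM. *Smad6*, an inhibitor induced by BMP, lay at 3.86 against 3.30 in FL, and at 0.686 against 0.529 in BM.

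The summed FPKM of the other marker lists in FL GFP+, FL GFP-, BM GFP+ and BM GFP- cells was 961, 885, 20047 and 2785 for 8 erythroid genes, and 53.2, 70.1, 365 and 451 for 5 megakaryocyte genes. For 5 T cell genes it was 4.04, 5.39, 133 and 31.5, and for 4 endothelial genes 132, 127, 42.7 and 71.4. The 7 macrophage genes summed to 75.5 and 40.2 in the FL samples.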
